A study of Mus musculus with 23 samples.

Results

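The 7 gastrocnemius libraries of mice with lowered BubR1 were taken as a single group and set against the 4 wild type (WT) gastrocnemius libraries, out of 23 libraries in the series. The group was formed from the genotype in the labels: 4 libraries labelled HL1002P, from BubR1 H/L1002P mice that carry a hypomorphic H allele of Bub1b opposite an allele with the missense change L1002P, and 3 labelled HH, from BubR1 H/H mice with a pair of H alleles. The mice of all groups were 8 to 10 months old and of mixed 129Sve and C57BL/6 strain background, and no other allele or treatment was named. The alleles are carried in every cell of the body. The 12 remaining libraries came from fat of the same genotypes, 4 each. RNA of whole tissue was sequenced, so fewer cells of a type and less RNA per cell cannot be told apart. The labels say nothing of litters or of how WT animals were chosen, and the p-values measure the spread between these libraries.

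BubR1, the product of Bub1b, is a kinase-like protein of the spindle assembly checkpoint, which holds cells in mitosis until all chromosomes are attached to the spindle and which keeps the anaphase-promoting complex inactive. Mice with little BubR1 age early: they become aneuploid, lose muscle and fat, and build up cells with p16, the cell cycle inhibitor made from Cdkn2a. Adult muscle fibres do not divide, so a muscle sample mixes them with the dividing and non-dividing cells between them, such as satellite cells, fibroblasts, vessel cells and macrophages. The question here is which transcripts move in the muscle of both mutants together, and where the genotypes differ.

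Muscle libraries held between 34137821 and 55266273 counts, with 16121 to 16793 genes counted at least once and 19.9% to 26.9% of the counts in the 10 most abundant genes. Markers of muscle fibres summed to 183000 to 252000 CPM (read counts scaled to a common normalised library size) in WT and 172000 to 230000 in the mutants. Of the 13 cell type lists the erythroid one held markers at 0 in every muscle library, 4 of its 7 (Hba-a1, Hba-a2, Hbb-bs and Hbb-bt). The list still summed to 3.87 to 8.27 CPM in WT and 2.13 to 7.77 in the mutants. Why these globin genes had no counts was not tested, so the zeros are no measure of red cell RNA. In a principal component analysis the first component (26.4% of the variance) placed the WT libraries between -54.3 and -15.5 and the mutants between -15.4 and 36.1, with WT library 1 farthest out and HL1002P library 2 next to WT. The second component (19.4%) separated libraries 1 and 2 of each genotype, which carried Y-linked transcripts, from libraries 3 and 4, which carried Xist; the labels give no sex. Each genotype held both kinds (2 and 2 in WT, 2 and 2 in HL1002P, 2 and 1 in HH).

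Bub1b itself (chromosome 2, 118598202 to 118641592, GRCm38) was low in muscle and lower in every mutant library. Its level was 0.951, 0.871, 0.726 and 0.767 CPM in the 4 WT libraries, and the 7 mutant libraries lay between 0.180 and 0.520 CPM with a median of 0.273. No mutant library reached the lowest WT one. HL1002P held 0.210 ± 0.0424 CPM (SD, n = 4) and HH 0.395 ± 0.109 (n = 3). The pooled log2 fold change was -1.50 ± 0.31 (SE), and an exact 2-sided permutation test of log2 levels over the 330 ways to choose 4 of 11 libraries gave p = 0.00303, the smallest that test allows. In the edgeR quasi-likelihood fit over all genes the adjusted p was 0.0635, short of the 0.05 threshold, with 154 counts behind the WT value and 38 and 55 behind those of HL1002P and HH.

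Cdkn2a (chromosome 4, 89274473 to 89294619), whose transcripts encode p16 and p19Arf, rose in the pooled mutants. WT libraries held 0, 0.104, 0.104 and 0.0465 CPM, 12 counts in all. The mutants ran from 0.363 through a median of 0.585 to 0.934 CPM, with 104 counts in HL1002P and 94 in HH. The groups did not overlap, and the genotype means were close to each other, for HL1002P 0.620 ± 0.234 CPM (SD, n = 4) and, for HH, 0.662 ± 0.244 (n = 3). The rise was 3.25 ± 0.55 on the log2 scale (edgeR adjusted p = 0.0296), and the difference between the genotypes was -0.11 with a 95% interval from -1.27 to 1.05. The call was lost in 6 of the 11 fits that leave out 1 library (WT 2, WT 3, WT 4, HL1002P 3, HH 2 or HH 3), where the value stayed between 2.85 and 3.65. Of 7 CDK inhibitor genes tested, Cdkn2a was the one past the edgeR test, where 0.412% of all genes passed. DESeq2 called 1 of the 7 higher and 1 lower, where it called 411 and 188 of all 14580 genes. Cdkn1a (p21) had a mean of 39.4 CPM in WT and 114 in the mutants (log2 fold change 1.53 ± 0.48, adjusted p = 0.159), with HL1002P library 1 and HH library 1 highest at 214 and 224 CPM.

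Psrc1, a p53-induced gene of a microtubule-binding protein of the mitotic spindle, rose as well. It was 0.0885, 0, 0.0519 and 0.0930 CPM in WT and 0.326 to 0.815 CPM in the mutants (median 0.584), with no overlap. Its log2 fold change was 3.28 ± 0.57 (edgeR adjusted p = 0.0299), on 10 WT counts. It was the 1 called gene of 30 known p53 targets, where 0.412% of all genes were called. DESeq2 called 5 of the 30, all higher, where it called 411 of all 14580 genes higher. Of the 30, 12 had an unadjusted p under 0.05 on the higher side and 1 on the lower, where 9.54% and 6.86% of all genes tested did, and the list median was 0.30 against 0.01 over all genes. The call of Psrc1 was lost without any 1 WT library and without HL1002P 3, HH 2 or HH 3 (2.81 to 3.61 over the 11 fits).

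Of 14580 genes tested, 60 passed in the pooled comparison (0.412%): 33 rose (0.226%) and 27 fell (0.185%). At an unadjusted p under 0.05 stood 2391 genes (16.4%). Rises were larger than falls, with 26 of the 33 at least 2-fold higher and 10 of the 27 at least 2-fold lower. All 33 genes that rose were higher in every mutant library than in every WT library, a separation seen in 1.71% of all genes, and 23 of the 27 that fell were lower in every mutant library, seen in 1.24% of all genes (either way in 2.95%). The 4 exceptions were Slc5a7, a choline transporter gene, Hddc3, Amph and the Wnt receptor gene Fzd9, each of which had 1 WT library within the mutant range or at 0. Only 9 of the 60 calls were kept without any 1 library: Gm14085, Glo1, Ndufaf1, Pla2g4e, Adal, Ccndbp1, Ryr3, Pick1 and Nudt16. The count fell to 11 without WT library 2, to 16 without HH library 3, to 18 without WT library 1, WT library 4 or HL1002P library 3, to 21 without WT library 3, and to 31 and 34 without HH library 2 and HH library 1. Without HL1002P library 2, the mutant library next to WT in the principal component analysis, it was 204, 132 higher and 72 lower. Within the 4 mutant and 2 WT libraries that carried Y-linked transcripts 1 gene passed (outside the 60), within the 3 and 2 that carried Xist 51 did (15 of the 60 among them), and with that difference as a covariate 144 did. The fit takes the 7 mutant libraries as independent, but deviations of HL1002P and HH libraries with the same number correlated at 0.244, 0.286 and 0.217 for numbers 1 to 3, and each matched its own number best. With the replicate number as a block 147 genes passed, 107 higher and 40 lower, with 57 of the 60 among them.

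Against WT, HL1002P alone gave 17 calls (0.117%) and HH alone 55 (0.377%), from the same 4 WT libraries. Over the 60 called genes the median size of the difference between HL1002P and HH was 0.17 on the log2 scale, beside a median size of 1.29 for the pooled change. These sizes are a description of the genes chosen: the pooled fit counts a difference between the genotypes as spread, which keeps genes with a large one out of the 60. The 95% intervals of the genotype difference, not adjusted for the number of genes, left out 0 in 7 of the 60 genes. The same count over all genes was not made, so these 7 have no background and are listed as values only. Igfn1 was higher in HH by 1.50 (0.57 to 2.43), Aldh3a1 was higher in HL1002P by 1.11 (0.39 to 1.83), and Fabp3 was higher in HL1002P by 0.70 (0.33 to 1.07). The other 4 were Ephx2, Hadhb, Lypd6 and 1810041L15Rik. After adjustment over all genes none of the 60 differed between HL1002P and HH (smallest edgeR adjusted p = 0.539). The plot of genotype values side by side gives each called gene's pair of values, with both genotypes compared against the same 4 WT libraries.

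**Figure D1:**
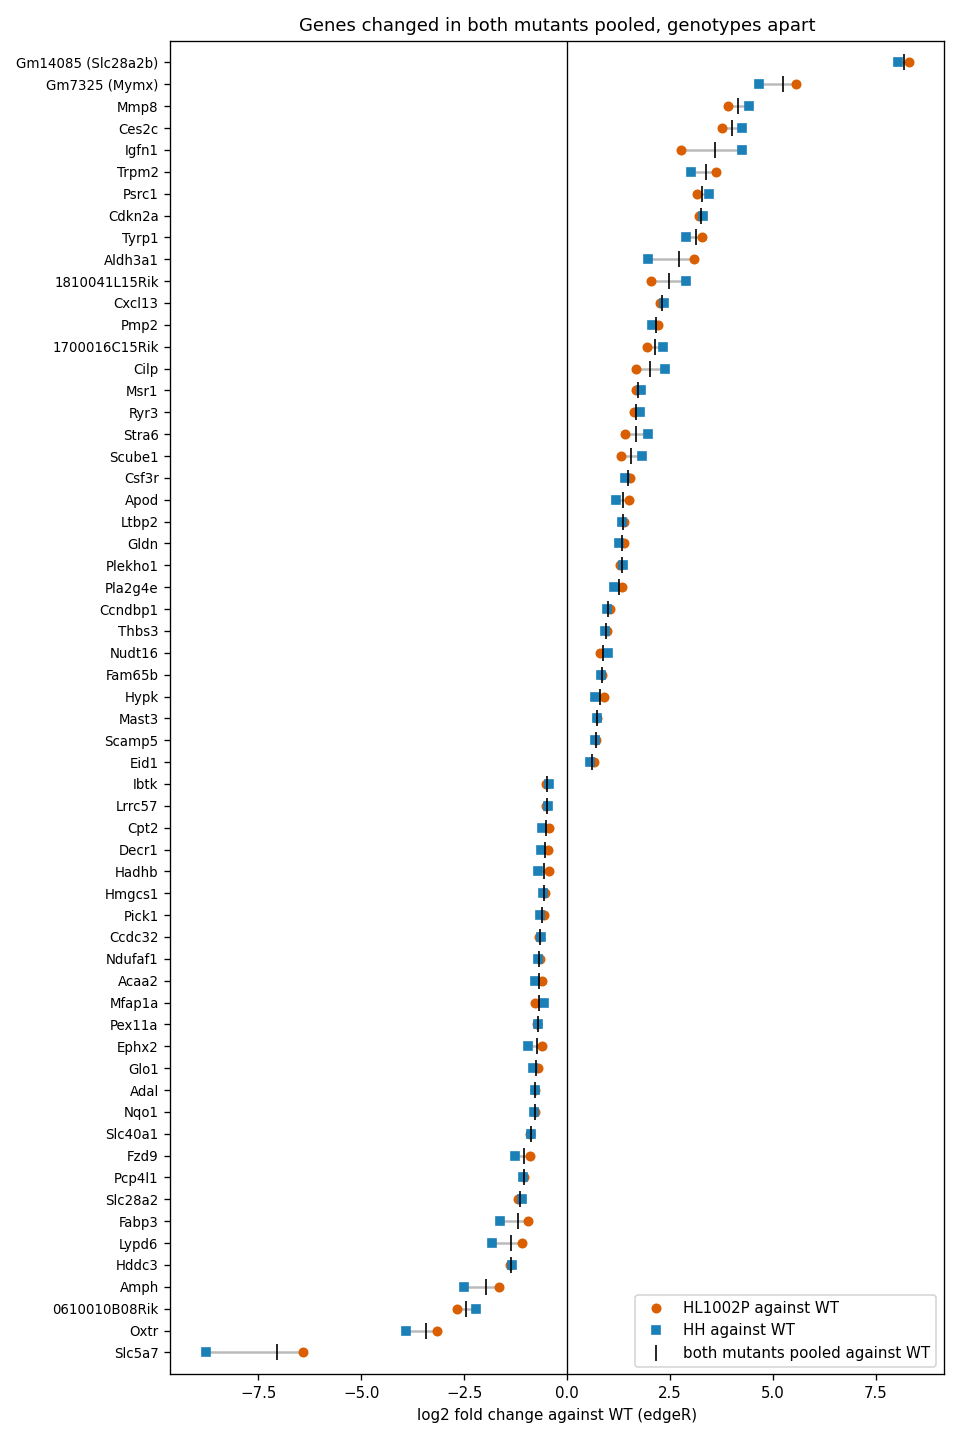
Log2 fold changes against WT (horizontal axis, edgeR) of the 60 genes past the test in muscle, one gene per line, with HL1002P as circles, HH as squares and the pooled value as a vertical bar. The genotypes are compared with the same 4 WT libraries; their median difference is 0.17 in size, and Slc5a7, with 2 counts in HL1002P and 0 in HH, has the widest gap.

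A set of 3 genes differed between HL1002P and HH over all 14580 tested (0.0206%), and none of them passed in the pooled comparison. Pttg1, which encodes securin, the inhibitor of the cohesin-cutting protease separase, was 29.1, 27.4, 32.5 and 40.7 CPM in WT, 27.7 to 33.9 CPM in HL1002P, and 1.19, 1.35 and 1.82 CPM in HH. HL1002P exceeded HH by 4.37 on the log2 scale (95% interval 3.95 to 4.80, edgeR adjusted p = 4.9e-07). Gm5860 (5.20, 4.09 to 6.31) and Pdzd3 (5.50, 4.72 to 6.27) had the same shape, with HL1002P means of 4.27 ± 0.565 and 1.74 ± 0.219 CPM (SD, n = 4) beside 4.16 ± 1.84 and 1.67 ± 0.231 (n = 4) in WT. The mean of the 7 mutants describes neither genotype in these genes, and the pooled log2 fold changes of -0.86, -0.74 and -0.73 carried SEs of 0.79, 0.87 and 0.84.

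Of the genes of mitochondrial fatty acid oxidation 4 fell, by modest amounts. Acaa2 (the thiolase of the last step for medium chains), Hadhb (whose product is the trifunctional protein's thiolase part), Decr1 (the reductase needed for unsaturated fats) and Cpt2 (which frees the acyl group from carnitine inside mitochondria) passed the test, with mutant levels of 0.62 to 0.70 times those of WT. All 26 genes listed for this pathway were tested: 4 fell, 0 rose and 22 did not pass, where 0.185% of all genes fell. Of the 26, 19 had an unadjusted p under 0.05 on the lower side and 0 on the higher, and 15 were lower in every mutant library than in every WT one, beside 6.86% and 1.24% of all genes. The list median was -0.34 (-0.30 in HL1002P and -0.43 in HH) beside 0.01 over all genes. DESeq2 called 14 of the 26 lower and 0 higher, where it called 599 genes in all, and limma voom called 2, Acaa2 and Decr1, of 23 in all. In the libraries with Y-linked transcripts 0 of the 26 passed, with 14 lower at an unadjusted p under 0.05 and a median of -0.45. In those with Xist 0 passed too, with 17 lower and 3 higher at an unadjusted p under 0.05 and a median of -0.27.

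Hadhb, the most abundant of the 4, had a separate range in each genotype. The WT libraries held 581, 753, 703 and 657 CPM, the HL1002P libraries 501, 484, 494 and 493, and the HH libraries 393, 402 and 448. Every HH library lay below every HL1002P library, and these lay below every WT one. Its pooled log2 fold change was -0.55 ± 0.10 (SE, edgeR adjusted p = 0.0322). HL1002P exceeded HH by 0.25 (unadjusted 95% interval 0.02 to 0.48), which did not pass (edgeR adjusted p = 0.988). Its partner Hadha, transcribed from a start close to that of Hadhb on chromosome 5, was 438, 609, 523 and 499 CPM in WT and 327 to 420.2 CPM in the mutants (-0.52 ± 0.10, adjusted p = 0.0510, not past the threshold). Acaa2 was 219, 309, 247 and 236 CPM in WT and ran from 134 through 157 to 182 CPM in the mutants (-0.68 ± 0.10, adjusted p = 0.0202). Decr1 was 151, 186, 173 and 149 CPM in WT and 97.2 to 121 in the mutants (-0.54 ± 0.09, adjusted p = 0.0272). Cpt2 was 89.6, 113, 102 and 108 CPM in WT and 59.3 to 83.3 in the mutants (-0.51 ± 0.10, adjusted p = 0.0477). Among regulators of the pathway, Ppargc1a had a log2 fold change of 0.21 ± 0.39, Ppara of 0.03 ± 0.35 and Ppard of 0.30 ± 0.14, none past the test. The Acaa2 call was lost only without WT library 2 (of 11 fits, -0.74 to -0.57), that of Decr1 without WT 2, WT 3 or HH 3 (-0.59 to -0.48), that of Hadhb in 7 fits (-0.62 to -0.50), and that of Cpt2 in 9.

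The largest fall in fatty acid handling was that of Fabp3, the binding protein that carries fatty acids through the cytosol of heart and oxidative muscle. WT libraries held 641, 1055, 867 and 849 CPM. HL1002P libraries held 382, 443, 458 and 491 CPM and HH libraries 288, 220.5 and 311. The 3 genotypes formed 3 separate ranges, with HH lowest, but the difference between HL1002P and HH did not pass (edgeR adjusted p = 0.539). The pooled log2 fold change was -1.20 ± 0.20 (edgeR adjusted p = 0.0272), lost without WT 2, WT 3, WT 4 or HH 3 (-1.32 to -1.08). Of 13 genes for fatty acid uptake and binding it was the 1 that fell in edgeR, where 0.185% of all genes fell, and 0 rose (median -0.10). DESeq2 called 3 lower, Fabp3, Plin5 and Angptl4, where it called 188 of all 14580 genes lower. Plin5, which ties lipid droplets to mitochondria, and Angptl4, an inhibitor of lipoprotein lipase, had log2 fold changes of -0.95 ± 0.24 and -1.03 ± 0.31 without passing (adjusted p = 0.104 and 0.154). The 250 bases before the RefSeq start of Fabp3 (GRCm38.p6, plus strand, chr4:130308488-130308737) are printed because it is the gene of the pathway with the largest fall.

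Fabp3: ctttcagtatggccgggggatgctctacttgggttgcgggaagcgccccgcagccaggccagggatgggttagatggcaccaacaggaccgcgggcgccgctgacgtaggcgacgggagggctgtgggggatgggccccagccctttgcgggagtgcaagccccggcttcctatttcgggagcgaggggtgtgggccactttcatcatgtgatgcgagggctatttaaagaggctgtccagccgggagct

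TNAAGGTCA is a site bound by oestrogen-related receptors, and the DR1 direct repeat is bound by PPAR with RXR. Neither occurs on either strand of this window or in those of Hadhb and Cpt2. Windows on chromosome 18, where Acaa2 lies, were left out of the search, and none was found for Decr1. Among 32851 RefSeq windows of the same length outside chromosome 18, 1.14% hold the first motif and 0.0335% the second.

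**Figure D2:**
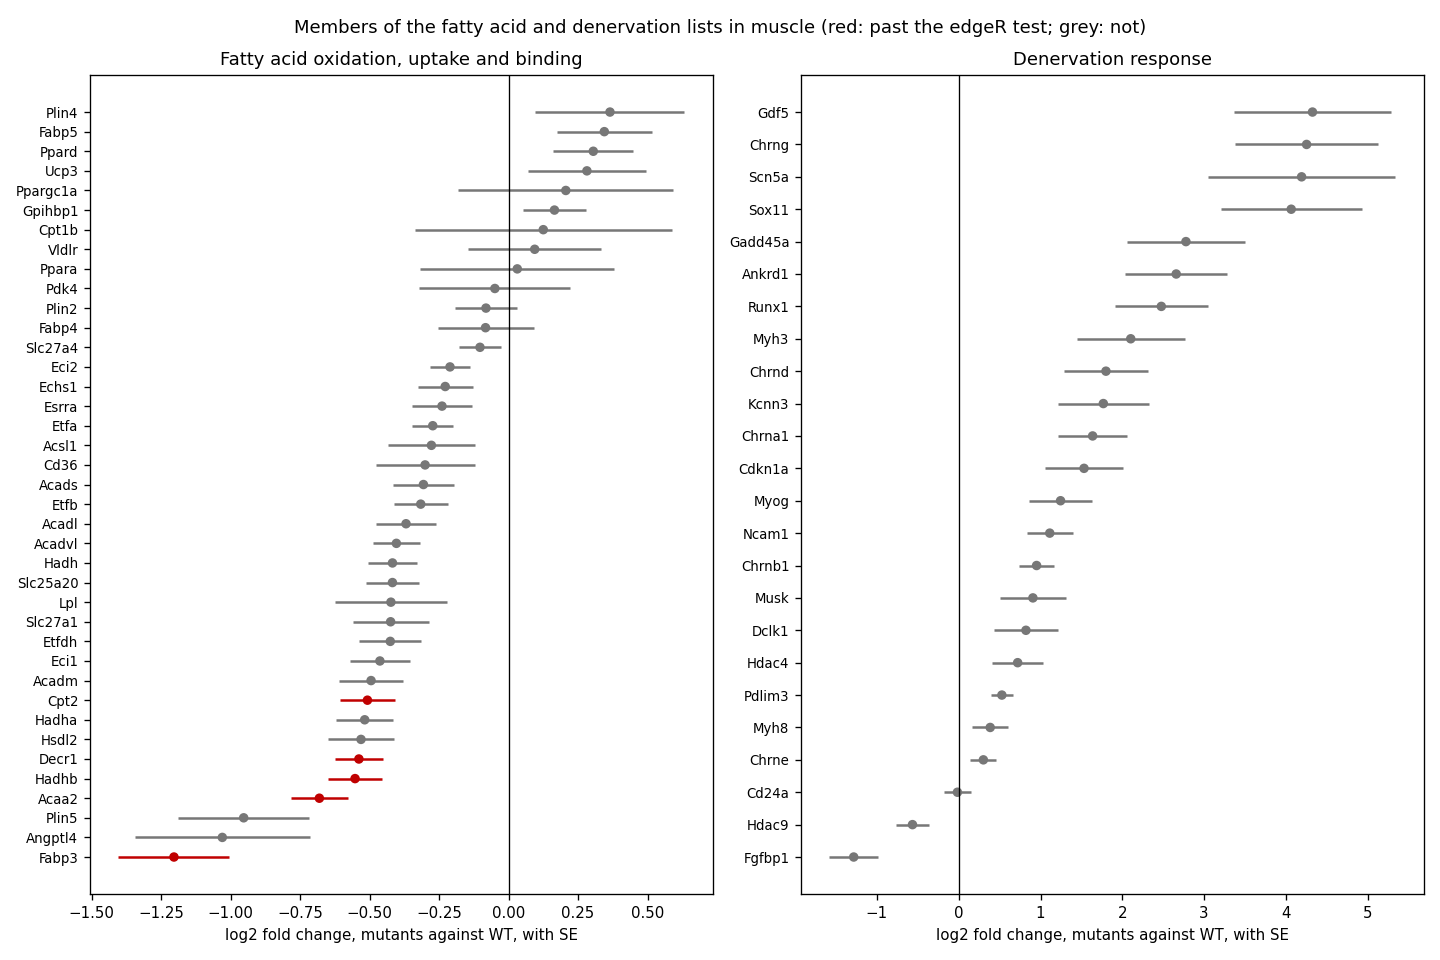
Pooled log2 fold changes with SE (horizontal axes) of the fatty acid oxidation and fatty acid uptake genes (left) and of the denervation genes (right), ordered by value, with red points for genes past the edgeR test. The fatty acid genes hold 5 red points, all negative, from -0.51 ± 0.10 (Cpt2) to -1.20 ± 0.20 (Fabp3), and the denervation genes reach 4.33 ± 0.96 (Gdf5) with no red point.

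The lists of other mitochondrial genes had smaller medians than fatty acid oxidation, though the lowest TCA cycle value was -0.754. None of 29 oxidative phosphorylation genes and none of 18 TCA cycle genes passed, with list medians of -0.15 and -0.16. Negative values were held by 26 of 29 and 18 of 18. An unadjusted p under 0.05 on the lower side was seen in 8 and 4, beside 6.86% of all genes. DESeq2 called 3 and 1 lower, where it called 188 of all 14580 genes lower. Ndufaf1, an assembly factor of respiratory complex I, did fall, from 36.6, 33.3, 38.4 and 39.0 CPM to between 22.1 and 25.1 CPM (-0.68 ± 0.07, edgeR adjusted p = 0.0017), but it lies in the neighbourhood of Bub1b. Pex11a, which divides peroxisomes and is a known PPAR target, fell from a mean of 9.30 ± 1.07 CPM (SD, n = 4) to 5.65 ± 0.941 (n = 7; -0.72 ± 0.14, adjusted p = 0.0459), and Ephx2, a soluble epoxide hydrolase, from 54.8 ± 7.41 to 32.7 ± 5.22 CPM (-0.74 ± 0.13, adjusted p = 0.0299). WT and mutants did not overlap in these 3 genes, but Pex11a was kept in 1 and Ephx2 in 3 of the 11 fits without 1 library. Among 21 genes of glycolysis and glycogen, 17 of slow fibres and 16 of fast fibres edgeR and DESeq2 both made 0 calls, with medians of -0.07, 0.01 and -0.16. An unadjusted p under 0.05 was seen in 2, 2 and 1 of them, beside 16.4% of all genes.

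A group of genes that muscle fibres switch on when their nerve supply is cut was higher in the mutants without passing the test. All 24 listed genes were tested and 0 were called, where 0.412% of all genes were. Of the 24, 18 had an unadjusted p under 0.05 on the higher side and 2 on the lower, beside 9.54% and 6.86% of all genes. In 10 every mutant library was above every WT one, beside 1.71% of all genes. The list median was 1.39 (1.33 in HL1002P and 1.38 in HH). DESeq2 called 14 of the 24, 13 higher and 1 lower, where it called 411 and 188 of all 14580 genes. With limma voom 0 of the 24 were called. Chrng, the fetal subunit of the acetylcholine receptor, was 0.243, 0.348, 0.207 and 0.256 CPM in WT. The HL1002P libraries held 20.4, 0.925, 1.77 and 3.25 CPM and the HH libraries 4.40, 2.96 and 2.60 CPM. All 7 lay above WT, and HL1002P library 1 lay far above the rest (log2 fold change 4.25 ± 0.87, edgeR adjusted p = 0.0583). Chrna1, the alpha subunit, was 21.9 to 31.9 CPM in WT and 45.0 to 192 CPM in the mutants, highest in HL1002P 1 and HH 1 (126 CPM). Runx1, a transcription factor that limits wasting of denervated fibres, was 2.65 to 3.05 CPM in WT and 4.90 to 35.0 CPM in the mutants, again with HL1002P 1 and HH 1 highest (35.0 and 34.7). Gdf5, a BMP ligand that protects denervated muscle, did the same at 18.3 and 15.4 CPM, beside 0.140 to 0.648 CPM in WT. These genes varied widely between the mutant libraries, with SEs of 0.87 for Chrng, 0.42 for Chrna1, 0.57 for Runx1 and 0.96 for Gdf5 on the log2 scale (adjusted p = 0.115, 0.0806 and 0.0743 for the last 3). Chrnb1, Chrnd and Chrna1 were also the 3 of 16 neuromuscular junction genes that were higher in every mutant library. No gene of that list passed in edgeR and 4 were called by DESeq2 (median 0.17). Of the 16, 6 had an unadjusted p under 0.05 on the higher side, beside 9.54% of all genes.

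Igfn1 and Mymx, both made in muscle cells, did rise. Igfn1, a large protein of the sarcomeric Z disc with immunoglobulin-like domains, rose from 6.33, 18.8, 8.71 and 14.4 CPM in WT to 143, 80.6, 49.6 and 52.8 CPM in HL1002P and 292, 130.3 and 270.1 CPM in HH. The lowest mutant library was above the highest WT library. Its log2 fold change was 3.59 ± 0.58 (edgeR adjusted p = 0.0272), and the call was lost without any 1 of the WT libraries (3.33 to 3.89 over the 11 fits). Gm7325, named Mymx in RefSeq, encodes myomixer, the small peptide with which myoblasts fuse, and rose from at most 0.0519 CPM in WT (5 counts in all) to between 0.256 and 2.39 CPM (5.23 ± 0.79, adjusted p = 0.0204, lost without WT 1, WT 2 or WT 4). Its partner in fusion, myomaker (Tmem8c in the table), was 0.0442 to 0.372 CPM in WT and 0.564 to 9.04 CPM in the mutants without passing (3.91 ± 0.86, adjusted p = 0.0738). Of 22 tested satellite cell and regeneration genes Mymx was the 1 that rose in edgeR and 0 fell, where 0.412% of all genes were called. Pax7, which marks satellite cells, had the value -1.18 ± 0.32 on the log2 scale (edgeR adjusted p = 0.128). DESeq2 called 5 of the 22 higher and 1, Pax7, lower, where it called 411 and 188 of all 14580 genes. The list of 25 titin-associated and sarcomere stress genes likewise had 1 rise, Igfn1, where 0.226% of all genes rose. DESeq2 called 3 of this list higher. In it 8 genes had an unadjusted p under 0.05 on the higher side, beside 9.54% of all genes, and the list median was 0.25.

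The windows before the RefSeq starts of Chrng (plus strand, chr1:87205561-87205810), Chrna1 (minus strand, chr2:73580339-73580588) and Igfn1 (minus strand, chr1:136006343-136006592, before the start in the table, which lies inside the outer limits of the gene) are printed because these genes are held by the denervation and sarcomere lists and are higher in all 7 mutant libraries. Capitals mark each CAGCTG, the palindromic E-box that myogenic factors such as myogenin bind.

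Chrng: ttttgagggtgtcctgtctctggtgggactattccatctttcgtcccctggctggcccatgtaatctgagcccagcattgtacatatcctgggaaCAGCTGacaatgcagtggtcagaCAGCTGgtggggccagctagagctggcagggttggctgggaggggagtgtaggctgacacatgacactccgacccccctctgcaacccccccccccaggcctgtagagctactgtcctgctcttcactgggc

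Chrna1: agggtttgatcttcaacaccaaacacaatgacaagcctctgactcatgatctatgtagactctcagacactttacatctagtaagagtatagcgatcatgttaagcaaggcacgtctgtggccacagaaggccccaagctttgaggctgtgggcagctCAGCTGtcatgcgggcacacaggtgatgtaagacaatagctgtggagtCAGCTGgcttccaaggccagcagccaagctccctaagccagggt

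Igfn1: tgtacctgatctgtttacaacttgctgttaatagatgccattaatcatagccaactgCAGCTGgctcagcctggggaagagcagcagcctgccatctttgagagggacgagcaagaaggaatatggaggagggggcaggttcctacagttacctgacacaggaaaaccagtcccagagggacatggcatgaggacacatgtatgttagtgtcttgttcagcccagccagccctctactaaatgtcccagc

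Chrng holds 2 such matches (155 and 132 bases before its start), Chrna1 holds 2 (92 and 44 bases) and Igfn1 holds 1 (193 bases); 13.0% of the 32851 windows hold at least 1. The motif was picked with the expression values known, and a match says nothing of binding. Chrnd and Mymx were not in the table.

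**Figure D3:**
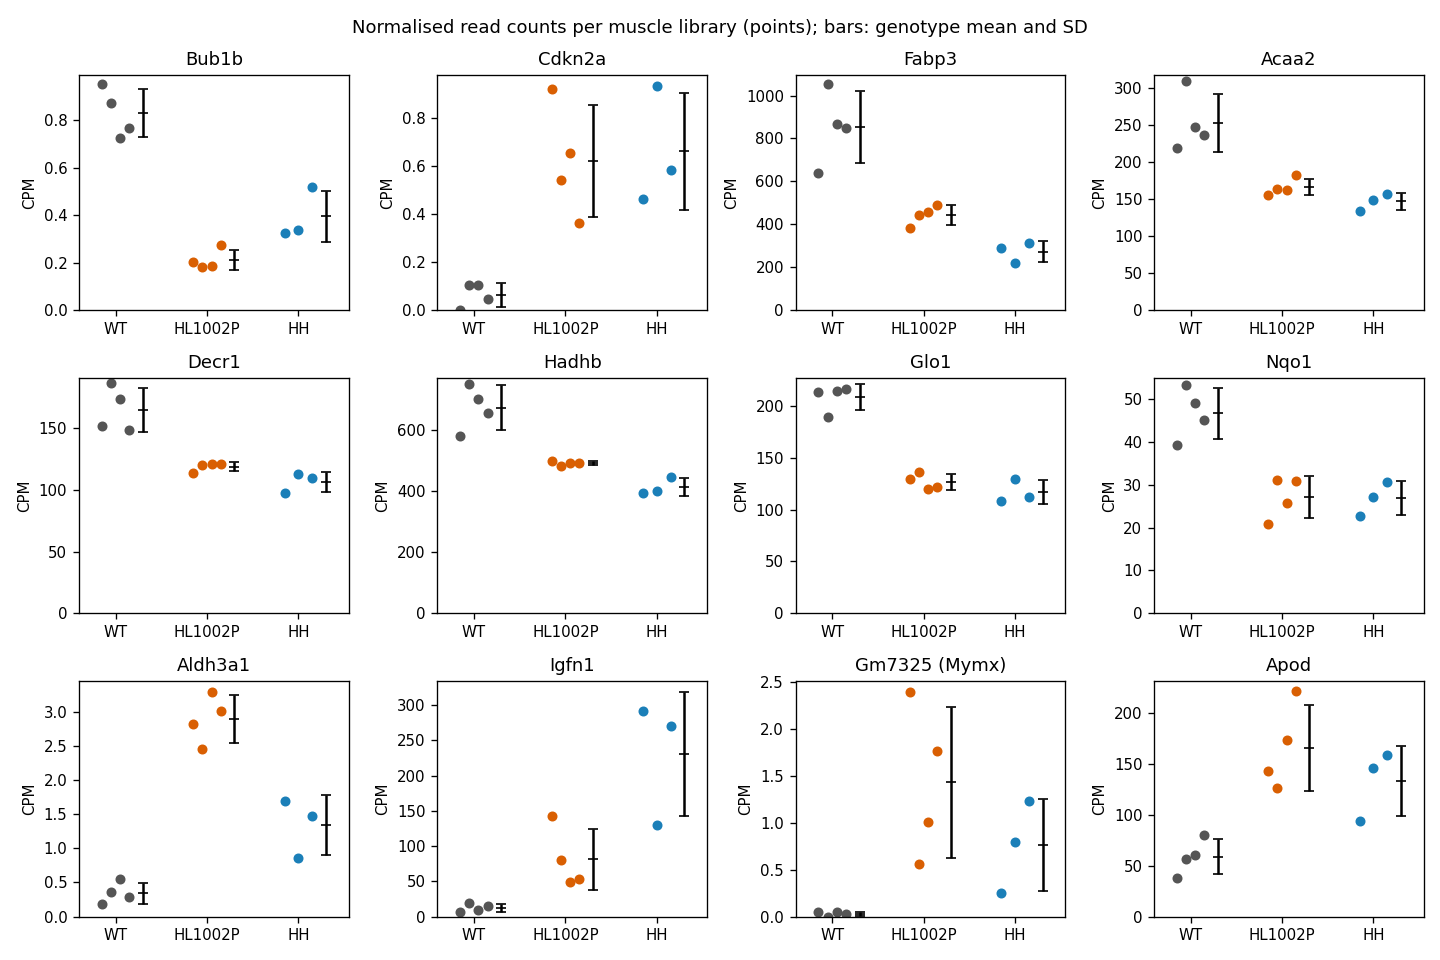
Normalised read counts (vertical axes in CPM, starting at 0) of 12 genes in each muscle library, as points by genotype, with the genotype mean and SD as bars beside them. Bub1b, Fabp3, Acaa2, Decr1, Hadhb, Glo1 and Nqo1 lie lower and Cdkn2a, Aldh3a1, Igfn1, Gm7325 (Mymx) and Apod higher in all 7 mutant libraries than in the 4 WT libraries.

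Detoxifying enzymes moved in both directions. Glo1, which disposes of methylglyoxal, a by-product of glycolysis, fell from 214, 189, 214 and 216 CPM in WT to between 108 and 136 CPM (median 122), with tight groups and no overlap. Its log2 fold change was -0.77 ± 0.08 (edgeR adjusted p = 0.00155), -0.72 ± 0.09 in HL1002P and -0.83 ± 0.10 in HH, and it passed in all 11 fits that leave out 1 library. Nqo1, a quinone reductase and classic NRF2 target, fell from 39.2, 53.2, 49.0 and 45.0 CPM to between 20.7 and 31.1 CPM (-0.79 ± 0.12, adjusted p = 0.0269, lost without WT 2, WT 3, WT 4 or HL1002P 3). Aldh3a1, an aldehyde dehydrogenase, rose from 0.177, 0.366, 0.544 and 0.279 CPM in WT to 2.46 to 3.29 CPM in HL1002P and 0.855 to 1.70 CPM in HH. The HL1002P and HH ranges did not overlap, but their difference did not pass (edgeR adjusted p = 0.906). The pooled log2 fold change was 2.71 ± 0.42 (adjusted p = 0.0269, lost without WT 1, WT 2 or WT 4). The list of 30 aldehyde detoxification and NRF2 target genes had these 3 calls, 1 higher and 2 lower, where 0.412% of all genes were called. It held 15 positive and 15 negative values, with a median of 0.00. DESeq2 called 3 of the list higher, Hmox1 among them, and 2 lower, where it called 411 and 188 of all 14580 genes. Of other NRF2 targets, Hmox1, heme oxygenase, had a log2 fold change of 0.83 ± 0.24 and Srxn1, sulfiredoxin, of 0.59 ± 0.25 (adjusted p = 0.138 and 0.276).

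Several matrix and secreted proteins rose. Apod, a lipocalin of the extracellular space known to go up with age and stress, was 37.7, 56.8, 60.8 and 80.3 CPM in WT and ran from 93.8 through 146 to 222 CPM in the mutants (log2 fold change 1.37 ± 0.23, edgeR adjusted p = 0.0284). Ltbp2, a microfibril protein, was 0.597, 0.853, 0.933 and 0.791 CPM in WT and 1.53 to 2.83 CPM in the mutants (1.36 ± 0.23, adjusted p = 0.0272). Cilp, a matrix protein that binds TGF-beta, was 22.8, 33.0, 17.9 and 26.8 CPM in WT and 48.0 to 225 CPM in the mutants, with HH library 1 at the top and HL1002P library 1 next at 136 CPM (2.02 ± 0.39, adjusted p = 0.0477). These 3 of the 23 elastic fibre and matricellular genes tested rose, beside 0.226% of all genes, and 0 fell. Of the 23, 8 had an unadjusted p under 0.05 on the higher side and 1 on the lower, beside 9.54% and 6.86% of all genes (median 0.24). Of 17 collagen genes 0 passed in edgeR or DESeq2, and 3 had an unadjusted p under 0.05, beside 16.4% of all genes (median 0.04). Thbs3, a thrombospondin (0.94 ± 0.17, adjusted p = 0.0398), and Scube1, a secreted EGF-domain protein (1.55 ± 0.30, adjusted p = 0.0466), rose too. Apod was lost without WT 1, WT 2, WT 3, HL1002P 3 or HH 3 (1.20 to 1.55), Ltbp2 in 6 of the 11 fits (1.24 to 1.44) and Cilp in 8 (1.69 to 2.18), while Thbs3 and Scube1 were kept in 2 each. Summed markers of fibro-adipogenic progenitors, cells that make such matrix, were 1440 to 2560 CPM in WT and 1290 to 3060 in the mutants, and of tendon cells 206 to 432 in WT, 220 to 333 in HL1002P and 134 to 202 in HH; their part in these results was not tested.

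Pmp2 and Gldn rose from low levels. Pmp2, a lipid-binding protein of peripheral myelin, was 0.509, 0.470, 0.363 and 0.395 CPM in WT and 0.977 to 3.18 CPM in the mutants (2.15 ± 0.35, edgeR adjusted p = 0.0272). Gldn (gliomedin), which gathers sodium channels at nodes of Ranvier, was 1.15, 1.67, 1.11 and 1.37 CPM in WT and 2.09 to 5.21 CPM in the mutants (1.33 ± 0.23, adjusted p = 0.0299). Summed Schwann cell and nerve markers were 199 to 338 CPM in WT, 301 to 409 in HL1002P and 216 to 341 in HH, and 0 of the 12 tested passed in edgeR (1 at an unadjusted p under 0.05 and 1 called by DESeq2, S100b; median 0.26); their part was not tested. Among receptors and transporters, Stra6, the retinol uptake receptor, rose from 0.929, 1.41, 0.778 and 0.674 CPM to between 1.92 and 5.11 CPM (1.68 ± 0.32, adjusted p = 0.0438). Slc40a1 (ferroportin, the iron exporter) fell from 23.4, 21.5, 20.5 and 32.6 CPM to between 10.5 and 16.9 CPM (-0.88 ± 0.15, adjusted p = 0.0272). Oxtr, the oxytocin receptor, fell from 4.07, 13.1, 2.46 and 1.51 CPM, with WT library 2 highest, to between 0.0233 and 0.910 CPM (-3.43 ± 0.65, adjusted p = 0.0438). Pcp4l1, a small calmodulin-binding protein gene, fell from 66.2, 145, 117 and 113 CPM to between 39.6 and 65.8 CPM (-1.06 ± 0.19, adjusted p = 0.0322), and Lypd6, a modulator of Wnt signalling, from 2.49 to 3.60 CPM to 0.775 to 1.98 CPM (-1.37 ± 0.25, adjusted p = 0.0398). Ces2c, a carboxylesterase, rose from 0.0442 to 0.296 CPM to between 0.361 and 6.13 CPM, highest in HL1002P 1 and HH 1 (3.77 ± 0.84 in the HL1002P genotype and 4.26 ± 0.86 in HH, pooled adjusted p = 0.0490). The uncharacterised 1810041L15Rik rose from 0.288 to 0.610 CPM to between 1.31 and 4.79 CPM (2.47 ± 0.40, adjusted p = 0.0272). Of the 11 fits without 1 library, calls were kept in 5 for Pmp2 and Slc40a1, 3 for Gldn, 2 for Stra6 and Lypd6, 4 for Pcp4l1, 6 for 1810041L15Rik and 1 for Oxtr and Ces2c; Oxtr lay between -3.74 and -2.45 in them.

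Slc5a7, which takes choline back into motor nerve endings, had 254 counts in WT and 2 in the 7 mutants, a ratio of 0.00458 with a 95% interval from 0.000552 to 0.0167 for counting error only. Its WT libraries ran from 0 through 0.337 and 1.13 to 3.31 CPM, with an SD of 1.49 CPM around a mean of 1.19. The Slc5a7 call was kept in 3 of the 11 fits without 1 library. In fat Slc5a7 averaged 49.7 CPM in WT, 3.38 in HL1002P and 1.80 in HH (pooled log2 fold change -4.27 ± 0.93, edgeR adjusted p = 0.00543). Pick1, a PDZ protein that sorts glutamate receptors, and Nudt16, a nuclear RNA decapping enzyme, changed in tight groups. Pick1 fell from 74.1, 70.3, 73.9 and 71.6 CPM to between 42.2 and 55.1 CPM (-0.60 ± 0.08, edgeR adjusted p = 0.0106). Nudt16 rose from 6.20, 8.53, 8.48 and 8.19 CPM to between 12.5 and 16.6 CPM (0.87 ± 0.12, adjusted p = 0.0117). Both were kept without any 1 library. Hmgcs1, an early enzyme of cholesterol synthesis, fell from 35.5, 48.9, 35.6 and 33.8 CPM to between 23.6 and 28.8 CPM (-0.56 ± 0.11, adjusted p = 0.0438). Its call was kept in 1 of the 11 fits without 1 library.

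Several immune genes were higher, and 4 of them passed. Csf3r, the G-CSF receptor of neutrophils, was 0.199 to 0.596 CPM in WT and 0.895 to 1.31 CPM in the mutants (1.48 ± 0.29, edgeR adjusted p = 0.0466). Msr1, a macrophage scavenger receptor (1.73 ± 0.32, adjusted p = 0.0398), Cxcl13, a chemokine that draws B cells (2.30 ± 0.43, adjusted p = 0.0398), and Mmp8, neutrophil collagenase (4.15 ± 0.72, adjusted p = 0.0299), rose from means of 0.281, 0.241 and 0.0301 CPM in WT to 0.929, 1.20 and 0.543 CPM, each with no overlap. Csf3r and Msr1 were kept in 1, Cxcl13 in 3 and Mmp8 in 4 of the 11 fits without 1 library. Msr1, Cxcl13 and Mmp8 are on no list and were singled out after their values were seen. Of 22 macrophage markers 0 passed and 17 had an unadjusted p under 0.05 on the higher side, beside 9.54% of all genes; 0 were higher in every mutant library, and the list median was 0.91 (1.05 in HL1002P and 0.64 in HH). DESeq2 called 5 of them higher, where it called 411 of all 14580 genes higher. Their summed level was 109, 183, 269 and 229 CPM in WT, 381, 208, 297 and 619 in HL1002P, and 267, 281 and 384 in HH, so 2 mutant libraries lay within the WT range. Lyz2, lysozyme, ran from 21.9 to 45.5 CPM in WT and from 43.3 to 144 CPM in the mutants (1.10 ± 0.29, adjusted p = 0.123). Of 13 lipid-associated macrophage markers 0 passed, 9 values were positive and 4 negative, and the median was 0.15. Of these, 3 had an unadjusted p under 0.05 on the higher side, and DESeq2 called 2 higher. Their sums were 1800 to 2440 CPM in WT and 1880 to 2360 in the mutants. Of 9 neutrophil and mast cell markers tested, of 14 listed, Csf3r was the 1 that passed, where 0.412% of all genes did. DESeq2 called 2 higher. The list had a median of 1.18 and sums of 5.97 to 53.4 CPM in WT and 42.2 to 105 in the mutants. Lymphocyte markers were low: T cell markers summed to 4.88 to 7.68 CPM in WT and 7.02 to 13.5 in the mutants, and B cell markers to 0.363 to 1.84 and 0.374 to 1.43.

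**Figure D4:**
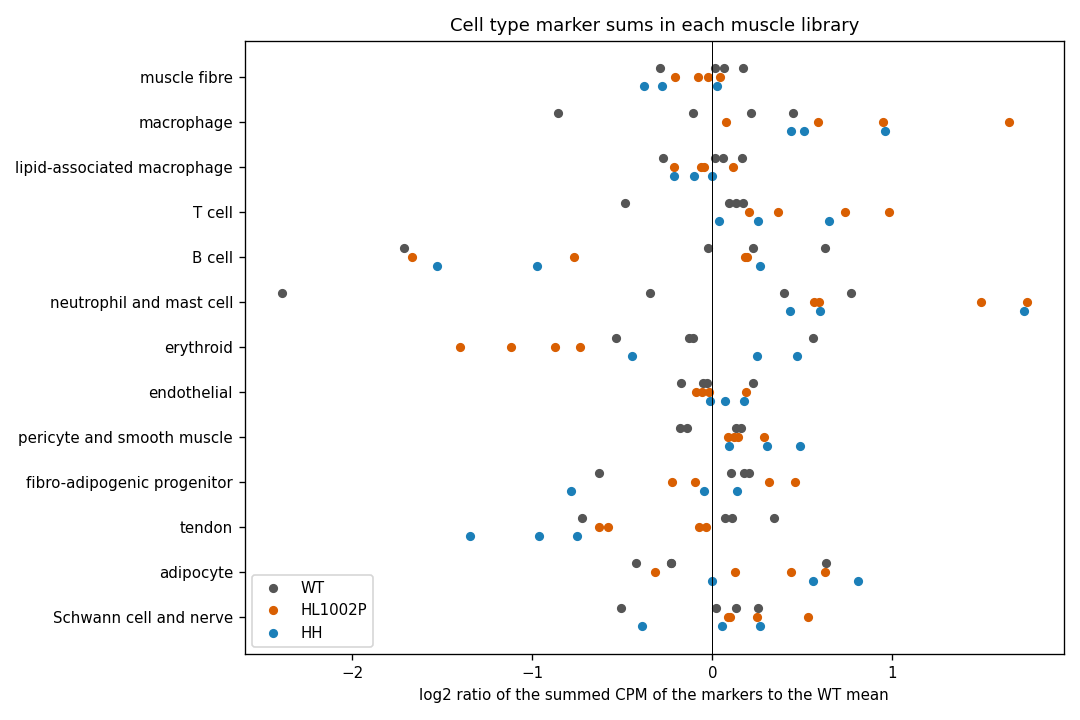
Summed CPM of each cell type's markers in every muscle library, as the log2 ratio to the mean of the 4 WT libraries (horizontal axis), by genotype. Macrophage sums lie above the WT mean in all 7 mutant libraries and overlap the WT range, neutrophil and mast cell sums do the same, tendon sums lie below it in all 7, and muscle fibre and endothelial sums stay near 0.

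Secreted factors of senescent cells gave 0 edgeR calls and 5 DESeq2 calls among 26 tested of 31 listed. DESeq2 called 599 of all 14580 genes. Of the 26, 13 had an unadjusted p under 0.05 on the higher side and 2 on the lower, beside 9.54% and 6.86% of all genes. The list median was 0.49. Timp1, an inhibitor of metalloproteases, came nearest: 0.708, 0.923, 0.804 and 1.07 CPM in WT and 1.62 to 5.67 CPM in the mutants (1.74 ± 0.35, edgeR adjusted p = 0.0510). Spp1, osteopontin, was 5.08 ± 0.832 CPM (SD, n = 4) in WT and 8.76 ± 1.78 (n = 7) in the mutants (0.78 ± 0.17, adjusted p = 0.0714), and both groups were separate. Cxcl10, an interferon-induced chemokine, overlapped between groups (2.42 ± 0.53, adjusted p = 0.0743). The 23 interferon-stimulated genes had a median of 0.49, 22 positive values and 0 edgeR calls (1 by DESeq2, Oas2). Of the 23, 7 had an unadjusted p under 0.05 on the higher side, beside 9.54% of all genes. Of 17 imprinted growth genes 0 passed in edgeR and 3 were called by DESeq2. In 6 the unadjusted p was under 0.05, where 16.4% of all genes stood, and 4 were higher in every mutant library, beside 1.71% of all genes. Among the 17, Peg3 was 2.84 to 4.96 CPM in WT, 5.21 to 9.92 in HL1002P and 7.65 to 23.1 in HH (1.46 ± 0.41, edgeR adjusted p = 0.132). Proliferation genes (26 tested), atrophy ligases and FoxO targets (21), proteasome genes (26) and spindle assembly checkpoint genes (13, Bub1b among them) had 0 edgeR calls, with 4, 4, 3 and 1 at an unadjusted p under 0.05, where 16.4% of all genes stood, and medians of 0.28, 0.23, 0.09 and -0.02. DESeq2 called 3, 1, 0 and 1 of them.

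Genes that start within 20 Mb of Bub1b were called more often than the rest of the genome. Of 266 tested (Bub1b left out) 12 passed (4.51%), 6 higher and 6 lower, beside 48 of 14262 elsewhere (0.337%). They include 6 of the 9 calls that were kept without any 1 library. The labels give a mixed strain background and do not say which strain the chromosome around Bub1b came from, so sequence linked to the alleles and lowered BubR1 cannot be told apart in this region. The plot of changes around Bub1b shows where the called genes lie.

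Ryr3, a ryanodine receptor calcium channel, rose from 1.66, 1.57, 0.882 and 0.977 CPM in WT to between 3.43 and 5.12 CPM (1.68 ± 0.21, edgeR adjusted p = 0.00507), 1.62 ± 0.24 in HL1002P and 1.76 ± 0.25 in HH. Pla2g4e, a cytosolic enzyme that makes N-acyl phospholipids, rose from 37.6, 41.6, 30.5 and 32.5 CPM to between 66.0 and 99.1 CPM (1.26 ± 0.14, adjusted p = 0.00193). Ccndbp1, which binds cyclin D1, rose from 27.8, 24.3, 31.5 and 32.3 CPM to between 48.2 and 66.6 CPM (1.03 ± 0.13 in HL1002P, 0.97 ± 0.14 in HH, pooled adjusted p = 0.00195). Adal, an adenosine deaminase-like enzyme, fell from 24.3, 21.9, 22.4 and 24.7 CPM to between 11.6 and 14.6 CPM (-0.78 ± 0.09, adjusted p = 0.00193). In all 4 the groups lay well apart. The widest interval of the difference between the genotypes was that of Ryr3, from -0.67 to 0.38 on the log2 scale.

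Gm14085, named Slc28a2b in RefSeq, gave the smallest p of all genes. It had 1 count in the 4 WT libraries together and 757 in the mutants, 0.884 to 3.23 CPM, a ratio of 441 with a 95% interval from 78.9 to 17400 that covers counting error only (edgeR adjusted p = 9.4e-05). Its neighbour Slc28a2, a nucleoside transporter gene, fell from 15.4, 15.5, 9.75 and 8.56 CPM to between 4.46 and 7.20 CPM (-1.15 ± 0.19, adjusted p = 0.0272). The pair are near copies that could share reads, so both values are uncertain, and an exchange of reads between them was not tested. With all genes within 20 Mb left out of the Benjamini-Hochberg adjustment, and the fit unchanged, 29 genes passed elsewhere, 15 higher and 14 lower. In the full adjustment 48 passed there, so the other calls depend on the small p-values near Bub1b. The count of 29 was added after the values were seen.

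**Figure D5:**
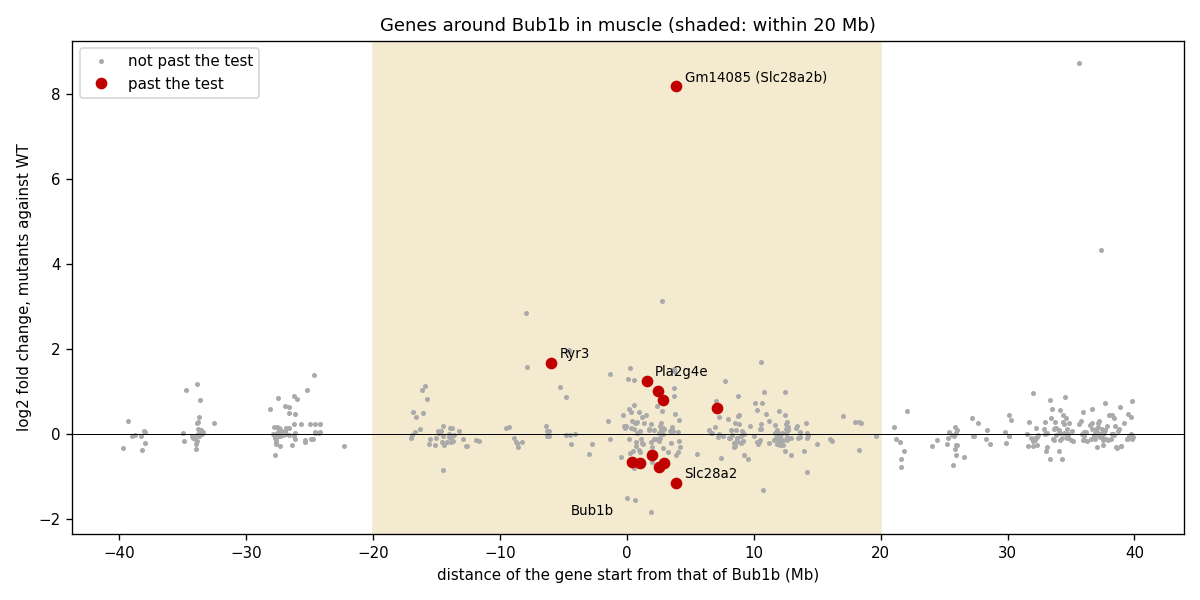
Pooled log2 fold change in muscle (vertical axis) of each gene tested within 40 Mb of Bub1b, by the distance of its start from that of Bub1b (horizontal axis, Mb). The 20 Mb on either side are shaded and genes past the edgeR test are red. Called chromosome 2 genes farther off, such as Lypd6 (-68531.8 kb) and 0610010B08Rik (57367 kb), are not shown. The 12 red points in the shaded part lie between -5967 kb (Ryr3) and 7075 kb (Eid1) from the start of Bub1b, 6 above and 6 below 0.

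The pooled mutant effect was also set against that in fat, where the same genotypes were compared. The fit took all muscle and fat libraries as independent, and any pairing of tissues from the same mouse was not modelled. In fat 6367 of 16266 genes passed (39.1%), and the effect in muscle minus that in fat passed for 2975 of the 11870 genes that averaged 1 CPM or more in both tissues (25.1%). Of the 60 genes called in muscle 42 could be tested this way, and 16 differed between the tissues. Of 25 fatty acid oxidation genes tested 1 differed, Ucp3, a mitochondrial uncoupling protein gene (0.28 ± 0.21 in muscle and -1.38 ± 0.39 in fat, adjusted p of the difference 0.0208); the list median was -0.715 in fat beside -0.343 in muscle. Decr1 fell by 1.15 ± 0.29 on the log2 scale in fat (edgeR adjusted p = 0.0105), with a difference of 0.54 ± 0.32 from muscle (adjusted p = 0.210). In fat the fall of Acaa2 was -0.77 ± 0.26 (edgeR adjusted p = 0.0319), with a difference of 0.02 ± 0.29 from muscle (adjusted p = 0.955), Hadhb one of 0.08 ± 0.23 and Glo1 one of -0.01 ± 0.23 (adjusted p = 0.827 and 0.974). Aldh3a1 rose by 2.45 ± 0.34 in fat, with a difference of 0.18 ± 0.53 (adjusted p = 0.815). Apod (1.23 ± 0.37, adjusted p = 0.0215), Ltbp2 (1.02 ± 0.34, adjusted p = 0.0354) and Cilp (1.58 ± 0.48, adjusted p = 0.0227) changed more in muscle than in fat, where each had a value between 0.09 and 0.36. Hmgcs1 fell more in fat (-2.37 ± 0.38), a difference of 1.73 ± 0.44 (adjusted p = 0.00949), and Amph, a gene of endocytosis, had opposite signs (1.83 ± 0.35 in fat, difference -3.86 ± 0.51, adjusted p = 0.000755). Cdkn1a had opposite signs, 1.53 in muscle and -1.28 ± 0.18 in fat (difference 2.74 ± 0.52, adjusted p = 0.00253). Fat of the mutants held far more lymphocyte RNA: B cell markers summed to 23.3 to 601 CPM in WT fat and 1240 to 3520 CPM in mutant fat, and their part in the fat values was not tested. Muscle fibre markers in fat summed to 330 to 18800 CPM in WT and 47.6 to 17100 CPM in the mutants, with WT library 3 (18800), HH library 1 (17100) and HL1002P library 4 (6780) far above the other fat libraries; the part of this RNA in the muscle and fat differences was not tested. Fat WT library 1 held 23.3 CPM of the B cell markers and 1730 CPM of the muscle fibre markers. Leaving it out brought the count of genes that differed between the tissues from 2975 to 1741.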

How the data were processed

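Whole-tissue RNA of gastrocnemius and fat was sequenced. The authors aligned reads with TopHat2 2.0.14 and Bowtie2 2.2.6 to mm10 and counted them per gene with featureCounts 1.4.6 of Subread, per the submitters' processing notes; the deposited values are raw counts. The annotation, strand setting and treatment of multiply mapped reads are not given in the sources used here. From these counts, 14580 muscle genes passed edgeR's filterByExpr (edgeR 4.0.16, R 4.3.3, minimum count 10) and were fitted with TMM factors and a quasi-likelihood test of 7 mutant against 4 WT libraries, with Benjamini-Hochberg adjustment over all genes and a threshold of 0.05. All adjusted p-values are from that test or its genotype and tissue contrasts. CPM are on TMM-scaled library sizes; at the smallest library 1 CPM is about 34.1 reads. Alternatives were DESeq2 1.42.0, limma voom 3.58.1, other scalings, filters, covariates and fits without 1 library; the fits were also tested on simulated data.

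The genes and lists were chosen with earlier results of these data known. Named genes are Bub1b, Cdkn2a, the 12 largest rises and 12 largest falls among called genes averaging 1 CPM or more with no overlap between groups, up to 3 genes per list, and up to 6 called genes near Bub1b. Other genes named were singled out after their values were seen. A Schwann cell marker is not reported here and was left out of its list's counts and sums. Sequences and positions are from RefSeq, GRCm38.p6; 23885 of 24062 symbols matched. Deviations from genotype means of same-numbered WT and mutant libraries correlated at 0.0023 to 0.28. Numbers 2 and 4 of WT and HL1002P and number 3 of WT and HH matched their own number best, and the others did not. Same-numbered HL1002P and HH libraries correlated at 0.217 to 0.286, each matching its own number best. The 2 ranges overlap, and the labels do not say what a number marks.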

Additional observations from a re-analysis of the deposited data

Results flagged for a closer look

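A library stood apart from the others of its group, by the gap to its nearest neighbour as a share of the group's range (Dixon's test), in 9 of 118 groups tested. Chance gives about 1 in 20 for independent values with a normal spread. The genes share libraries and some lie near 0 CPM, so 9 of 118 cannot be read against that rate. In HL1002P library 1 Chrng was 20.4 CPM and Sox11, a transcription factor of denervated muscle, 2.88 CPM, both above the other 6 mutant libraries. HL1002P library 4 was highest of the mutants in Oas2, an interferon-induced synthetase (5.83 CPM), and in the macrophage marker Cd68 (13.8 CPM); its macrophage marker sum of 619 CPM was the highest of the muscle libraries too. HH library 3 had 320 CPM of Cfd (adipsin, a fat cell product), and HH library 1 had 12.2 CPM of Mfap1a, a splicing factor gene near Bub1b. WT library 2 stood apart in 3 genes: Glo1 (189 CPM, the lowest WT value), Scube1 (1.34 CPM, the highest) and Gm14085 (0.0174 CPM, a single count, with the other WT libraries at 0). For Gm14085 the flag carries no weight, because any single count beside zeros is flagged.

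The pooled mutant effect differed between muscle and fat, by the interaction test of edgeR, in 12 of the 41 named genes that could be tested, where 25.1% of all genes tested did. The log2 effect in muscle minus that in fat was positive for Gm14085 (6.82), Gdf5 (5.49), Cxcl10 (2.56), Timp1 (2.39), Cilp (1.58), Apod (1.23), Ltbp2 (1.02), Ccndbp1 (0.762) and Ifitm3, an interferon-induced membrane protein gene (0.761). It was negative for Chad, a tendon and cartilage matrix gene (-2.95), Adal (-1.17) and Mfap1a (-0.561). Timp1 and Gdf5 fell in fat, by 0.73 ± 0.22 and 1.24 ± 0.41 on the log2 scale, while their muscle values were positive and short of the threshold.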

How the results depend on the processing

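The count of 60 calls (33 higher, 27 lower) depended on the tool and on single libraries. DESeq2 gave 599 (411 higher, 188 lower) and limma voom 23 (10 and 13); the split was 55% higher in edgeR, 68.6% in DESeq2 and 43.5% in voom. A filter of 1 CPM in 4 libraries gave 38 (19 and 19), a sex covariate 144 (96 and 48), libraries with Y-linked transcripts 1 (1 and 0, with 1399 at an unadjusted p under 0.05), libraries with Xist 51 with 12 lower, and HL1002P alone against WT 17 (11 and 6). With genes within 20 Mb of Bub1b left out of the adjustment but not of the fit, chosen after seeing the data, it was 29 (15 and 14). RLE or upper-quartile factors, no filter, equal genotype weights and thinning gave 59 to 76. Leaving out 1 library gave 11 to 204 calls, 5 to 132 higher and 6 to 72 lower. The replicate block gave 147 (107 higher, 40 lower; 57 of the 60 among them) and 3 between the genotypes; deviations of same-numbered WT and mutant libraries correlated at 0.0023 to 0.28, and the numbers coincide with the Y-linked and Xist libraries. The cause of these changes was not tested.

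Near Bub1b 4.51% were called, 2.33% in a 40 Mb window, 10.5% by DESeq2 (3.99% elsewhere) and 2.26% to 6.39% without 1 library. HL1002P against HH gave 3 genes, 41 by DESeq2 and 3 to 7 without 1 library. Muscle against fat gave 2975 genes and 1741 to 3708 without 1 library. Of values for named genes, 300 fell short of the threshold under an alternative, 41 newly passed and 2 changed sign: Kera 0.40 in libraries with Xist and Alas2 0.14 in HH alone. The tendon median was -0.83, and 0.13 in libraries with Xist. Low counts limit Cdkn2a, Psrc1, Mymx and Gm14085, with 12, 10, 5 and 1 WT counts.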

Other observations

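Circadian clock genes (18 tested), heat shock and chaperone genes (20) and endothelial markers (16) had medians of -0.18, 0.03 and 0.03 on the log2 scale, with 0 edgeR calls, 2, 4 and 3 at an unadjusted p under 0.05 (16.4% over all genes) and 0, 0 and 1 DESeq2 calls (Sox18 in endothelium). Tendon markers had a median of -0.83 (-0.60 in HL1002P and -1.16 in HH), with 6 of 10 at an unadjusted p under 0.05 on the lower side and 0 calls (1 by DESeq2, Mkx, a tendon transcription factor gene). Their median was -1.70 in libraries with Y-linked transcripts and 0.13, with 0 lower at an unadjusted p under 0.05, in those with Xist. Immediate early genes had a median of -0.22 in HL1002P and 0.36 in HH, with 0 of 24 called by edgeR (6 at an unadjusted p under 0.05) and 2, Nr4a1 and Nr4a2, called lower by DESeq2. Pericyte and smooth muscle markers had a median of -0.27 (-0.25 in HL1002P and -0.29 in HH), with 10 of 13 negative values, 2 lower and 0 higher at an unadjusted p under 0.05, and 0 calls by edgeR or DESeq2. Their summed level ran the other way, 5180 to 6530 CPM in WT and 6220 to 8210 CPM in the mutants, and most of it was Des, desmin, which muscle fibres also make (means of 5254 CPM in WT and 6312 CPM in the mutants, 0.26 ± 0.13, edgeR adjusted p = 0.321).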
